A study of Mus musculus with 5 samples.

Results

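The miR-200 family is a set of 5 microRNAs, mmu-miR-200a, mmu-miR-200b, mmu-miR-200c, mmu-miR-141 and mmu-miR-429, each cut from a hairpin whose other arm gives a star strand. Its members were taken by name from the array's probes, which gave 9 probes of the 598 naming a mouse microRNA: the 5 main strands and the star strands of mmu-miR-200a, mmu-miR-200b, mmu-miR-200c and mmu-miR-141. MicroRNA was measured with 1-colour miRCURY LNA arrays in brown, inguinal and epididymal adipose tissue and in gastrocnemius and soleus muscle of C57BL/6 mice aged 2 to 3 months, with no treatment or allele named. Each tissue had 1 array, and neither the sex nor the number of animals behind an RNA was named. No difference therefore has a replicate check, no test was made, and the only error is the spread of the 4 repeat spots of a probe.

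The family is known for its high level in epithelial cells and its low level in mesenchymal cells such as fibroblasts and muscle. Its members pair through their seed with the messages of Zeb1 and Zeb2, transcription factors that repress E-cadherin, and these factors in turn repress the family's genes, so that the loop helps to hold a cell in the epithelial or the mesenchymal state. Adipocytes and muscle fibres are mesenchymal, whereas a dissected depot can also carry mesothelium, glands or ducts that lie in or beside it.

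The sequences are printed because the family falls into seed groups that cut across its gene clusters. They are RefSeq's (GRCm38.p6), written 5′ to 3′, with the seed, bases 2 to 8, in capitals, and all 9 probe names were matched. The first pair of main strands carries the seed AACACUG and the other 3 carry AAUACUG.
mmu-miR-200a: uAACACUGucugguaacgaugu
mmu-miR-141: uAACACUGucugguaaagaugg
mmu-miR-200b: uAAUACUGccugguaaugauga
mmu-miR-200c: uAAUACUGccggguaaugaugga
mmu-miR-429: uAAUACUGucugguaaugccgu

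The seeds differ by the single change C4U, counted from 1 at the 5′ end of mmu-miR-200a and read against mmu-miR-200b. Among 1679 mature mouse sequences searched, AACACUG was the seed of 2 and AAUACUG of 3, all of this family. Over the 22 bases compared, mmu-miR-200a and mmu-miR-141 differed at 2 positions (C17A and U22G), and mmu-miR-200b and mmu-miR-200c also at 2 (U11G and A22G). The other pairs differed at 4 or 5 positions. Probes for the closest pairs may bind each other's target, so their separate values are uncertain.

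The genes lie in 2 clusters, each on the minus strand. Mir200b, Mir200a and Mir429 are 3 hairpins within 1846 bases at chr4:156053905-156055750 (GRCm38.p6), a stretch that overlaps the noncoding gene Gm13648 and has Ttll10 and 9430015G10Rik as its nearest coding neighbours. Mir200c and Mir141 are 2 hairpins within 477 bases at chr6:124717914-124718390, where no other gene overlaps, between Phb2 and Ptpn6. Each cluster thus holds both seeds.

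Values are background-subtracted intensities in units, the median of 4 spots, and a probe counted as detected at 50 units or more, called the floor below. Of the 9 probes, 4 were detected in epididymal fat and 0 in brown fat, inguinal fat, gastrocnemius or soleus. Over all mouse probes the share detected ran from 24.7% in inguinal fat to 28.4% in soleus, and at 26.3% in epididymal fat it was below the share in brown fat and in both muscles. Only 8 mouse microRNAs were detected in epididymal fat and on no other array, and 4 of them were of the family. The other 4 were mmu-miR-125b*, mmu-miR-218, mmu-miR-34c and mmu-miR-411*. In whole tissue, fewer cells of a type and less RNA per cell cannot be told apart.

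mmu-miR-200a, an AACACUG member of the chromosome 4 cluster, measured 197 units in epididymal fat, 13.5 in inguinal fat, 4.5 in soleus, 2 in brown fat and 1.5 in gastrocnemius. Its epididymal spots ran from 173 to 205 and its inguinal spots from 10 to 17, while no spot of the other 3 arrays was above 6. The order was therefore epididymal, then inguinal, then the rest, and brown fat and the muscles overlapped at the bottom, where the median of all undetected probes was 2 to 3.5 units.

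mmu-miR-141, the other AACACUG member, measured 166.5 units in epididymal fat, 40 in inguinal fat, 2.5 in brown fat, 2 in soleus and 1 in gastrocnemius. Its epididymal spots lay between 161 and 177 and its inguinal spots between 37 and 50. It was the main strand closest to the floor in inguinal fat, and no spot of brown fat or muscle was above 4. The groups of spots of epididymal fat, inguinal fat and the other 3 tissues did not overlap.

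mmu-miR-200b, an AAUACUG member of the chromosome 4 cluster, measured 193 units in epididymal fat, 14.5 in inguinal fat, 7.5 in soleus, 4 in gastrocnemius and 1.5 in brown fat. Its epididymal spots ran from 136 to 223, the widest range of the detected members, and its inguinal spots from 14 to 19. In soleus 3 spots read 2, 5 and 10 units and the fourth read 662. Of the 598 mouse probes on each of the 5 arrays, this was the only case of 1 spot above the floor at 10 times the next or more, with the other 3 under the floor. The soleus median takes little from that spot, whereas the mean of the 4 spots was 169.75 units, within the range of the epididymal spots.

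mmu-miR-200c, the AAUACUG member of the chromosome 6 cluster, measured 90 units in epididymal fat, 19.5 in inguinal fat, 4.5 in brown fat, 2 in soleus and 0.5 in gastrocnemius. Its spots were tight, at 85 to 94 in epididymal fat and 19 to 21 in inguinal fat. It was the lowest of the 4 detected probes, but probes differ in how well they bind, so that order does not rank the microRNAs by abundance. Unlike those of the other main strands, its brown fat spots, at 3 to 6, did not overlap those of gastrocnemius at 0 to 1.

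mmu-miR-429, the remaining AAUACUG member, was under the floor on every array. It measured 32 units in epididymal fat, 1.5 in inguinal fat, 1 in gastrocnemius and 0 in brown fat and soleus. The epididymal spots, 19 to 37, lay above every spot of the other 4 arrays, of which the highest was 3. The tissue that was highest was thus the same as for the detected members, at a level that the floor does not separate from probes without a clear signal.

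**Figure D1:**
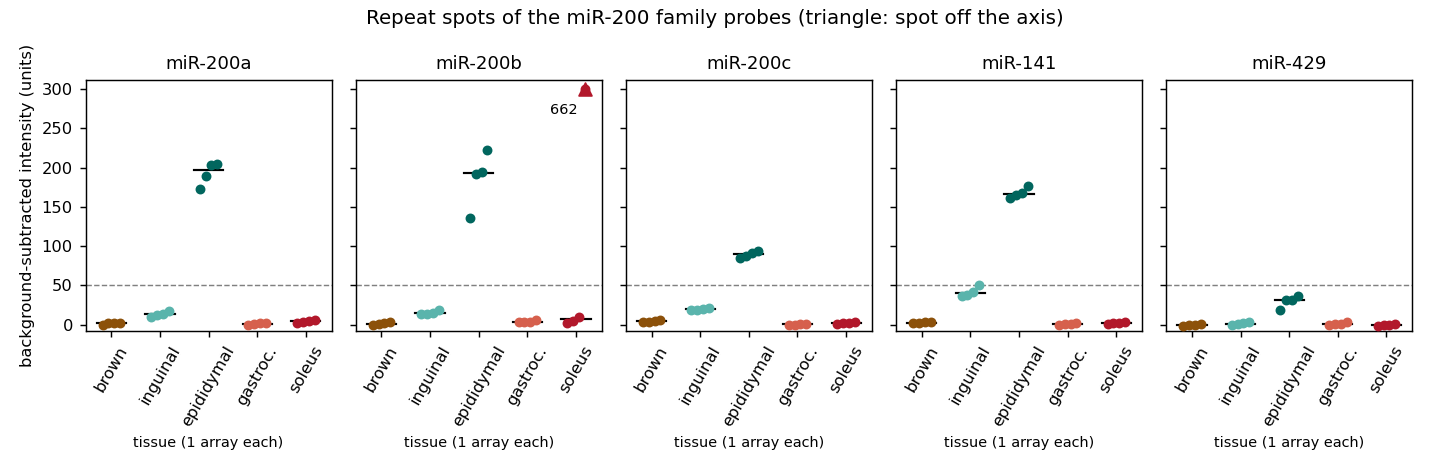
Background-subtracted intensity (units, linear axis) of each repeat spot of the 5 main-strand probes in the 5 tissues, with 1 array each. Points are spots, black bars are medians, the dashed line is the floor of 50 units and the triangle is the mmu-miR-200b spot of 662 units in soleus. Spots above the line are those of epididymal fat for 4 members and that single soleus spot, while 1 inguinal spot of mmu-miR-141 reached 50.

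Folds were taken on normalized intensity, the authors' ratio of a probe to its array's median, on which the epididymal levels were 0.497 for mmu-miR-200a, 0.487 for mmu-miR-200b, 0.420 for mmu-miR-141 and 0.227 for mmu-miR-200c. Each was below that array median. Where a tissue was under the floor, the smallest value detected on its array stood in for it, unless its own normalized value was larger, so every fold is a lower bound. The bound is set by the floor rather than by the dim tissue's own signal.

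In epididymal fat mmu-miR-200a was at least 4.31-fold higher than in brown fat, 4.18-fold higher than in inguinal fat, 4.02-fold higher than in gastrocnemius and 4.61-fold higher than in soleus (spot SE 0.057 on the log2 scale). The bounds for mmu-miR-200b were 4.22-, 4.10-, 3.94- and 4.51-fold in the same order (spot SE 0.15). For mmu-miR-141 they were 3.64-, 3.54-, 3.39- and 3.89-fold (spot SE 0.029). These 3 members passed 2-fold in every comparison, by more than their SE, which covers the epididymal spots only. The soleus spots of mmu-miR-200b, with 1 at 662 units, had a log2 SD of 3.7. That is wider than the fold over soleus, which was 2.174 on the log2 scale. With normexp and quantile normalization mmu-miR-141 was 1.99-fold higher than in inguinal fat, and at a floor of 100 units none of the 3 passed over gastrocnemius, at 1.66- to 1.96-fold. At that floor mmu-miR-141 passed in no comparison, at 1.85-fold over brown fat, 1.77-fold over inguinal fat and 1.94-fold over soleus. mmu-miR-200c had bounds of 1.97-, 1.91-, 1.84- and 2.11-fold (spot SE 0.033), and so passed only against soleus. That call was lost with no scaling (1.78-fold), with scaling to the 75th percentile of probes detected on all arrays (1.68), with normexp and quantile normalization (1.59) and with the pair centred on its median (1.83). With the mean of the spots in place of the median, mmu-miR-200b was 1.30-fold higher than in soleus, through the single spot of 662 units.

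Of the 9 family probes, 4 had a fold in each comparison, and they entered it only because they were detected in epididymal fat, so their counts are a description. Over brown fat, 3 of the 4 passed 2-fold, beside 23 of 178 mouse microRNAs (12.9%). Over inguinal fat it was 3 of 4, beside 20 of 172 (11.6%), and over gastrocnemius 3 of 4, beside 32 of 184 (17.4%). Over soleus it was 4 of 4, beside 41 of 187 (21.9%). The median microRNA detected on both arrays was itself higher in epididymal fat, by 0.406 on the log2 scale over inguinal fat, 0.206 over gastrocnemius, 0.204 over soleus and 0.123 over brown fat. With the inguinal pair centred on that median, 3 of the 4 members still passed, beside 10 microRNAs in place of 20.

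At least 2-fold higher in epididymal fat than in each of the other 4 tissues were 8 of 207 microRNAs (3.86%), and mmu-miR-200a, mmu-miR-200b and mmu-miR-141 were 3 of them. The others were mmu-miR-34b-5p, mmu-miR-34c, mmu-miR-135a, mmu-miR-708 and mmu-miR-103. The smallest of their folds were 5.0, 2.8, 2.91, 2.22 and 2.08, and those of the family were 4.02 for mmu-miR-200a, 3.94 for mmu-miR-200b and 3.39 for mmu-miR-141. The count of 8 was not rerun under other settings, and under some of them these family members missed 2-fold, as given above. The 6 pairs of tissues without epididymal fat gave no fold for any member, since all 54 values were under the floor on both sides.

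**Figure D2:**
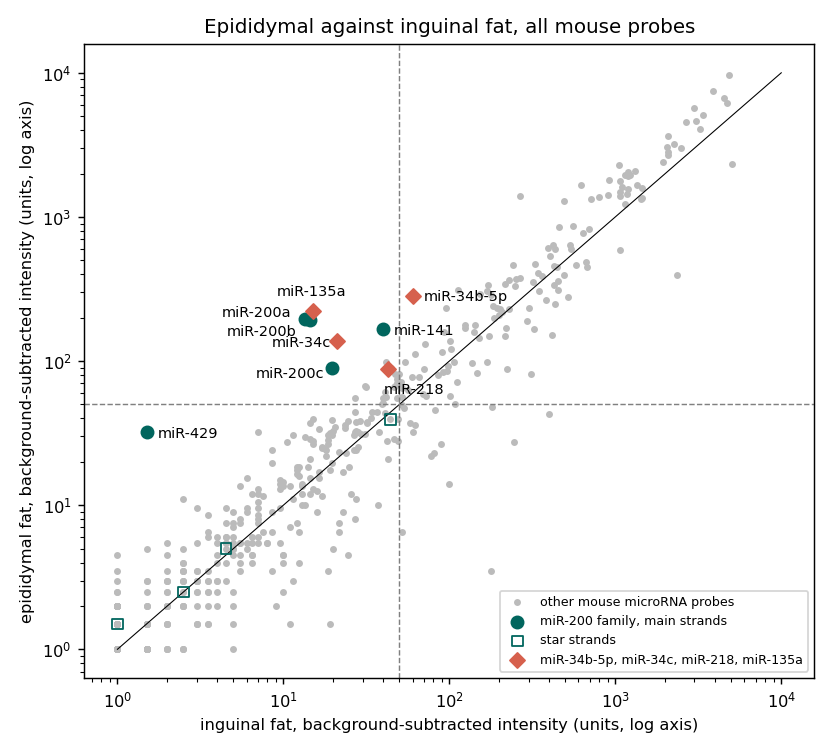
Background-subtracted intensity of all mouse probes in epididymal fat against inguinal fat (units, log axes, 1 array each; values under 1 drawn as 1), with the floor of 50 units dashed and equality as a solid line. mmu-miR-200a, mmu-miR-200b and mmu-miR-135a stand farthest above the line among probes detected in epididymal fat, mmu-miR-429 lies under the floor, and the star strands lie close to the line.

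Under the floor, inguinal fat had the second highest median for every main strand, although for mmu-miR-429 its spots overlapped those of brown fat, gastrocnemius and soleus. Over the 399 mouse microRNAs under the floor on the 4 arrays other than epididymal fat, every inguinal spot was above every brown fat, gastrocnemius and soleus spot for 15 (3.76%), a count made after the values were seen. Of the 9 family probes, mmu-miR-200a, mmu-miR-200c and mmu-miR-141 were among them. mmu-miR-200b was not, because of the soleus spot of 662 units. The inguinal medians of these 4 members were 13.5 to 40 units, where negative controls reached 1.0 unit and the 95th percentile of undetected probes was 38.6, so only mmu-miR-141 was above that percentile.

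The size of the difference under the floor was read by gene cluster after the values were seen, and the order of the clusters depended on the tissue. In the authors' deposited table the ratio of epididymal to inguinal fat was 15.5 for mmu-miR-200a, 14.1 for mmu-miR-200b and 22.7 for mmu-miR-429, the chromosome 4 members, and 4.90 for mmu-miR-200c and 4.42 for mmu-miR-141, the chromosome 6 members. Over brown fat the authors' deposited table likewise gave the chromosome 4 members the higher ratios, 111 for mmu-miR-200a and 145 for mmu-miR-200b, beside 75 for mmu-miR-141 and 22.5 for mmu-miR-200c. Over the muscles the order was the reverse. For gastrocnemius the authors' deposited table gave 185 for mmu-miR-200c and 171 for mmu-miR-141, beside 135 for mmu-miR-200a, 49.7 for mmu-miR-200b and 32.9 for mmu-miR-429. For soleus the authors' deposited table gave 98.3 for mmu-miR-141 and 53.2 for mmu-miR-200c, beside 51.7 for mmu-miR-200a and 30.4 for mmu-miR-200b. Every lower value behind these ratios was under the floor, and mmu-miR-429 was under it on both sides, so the ratios describe these arrays and do not separate the clusters or the seeds.

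The star strands showed no epididymal rise. They are printed as the partner arms of the hairpins above, again with bases 2 to 8 in capitals.
mmu-miR-200a*: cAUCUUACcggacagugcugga
mmu-miR-200b*: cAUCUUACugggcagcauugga
mmu-miR-200c*: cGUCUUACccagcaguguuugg
mmu-miR-141*: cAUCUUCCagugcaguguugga

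mmu-miR-200a* measured 1 unit in brown fat, 1 in inguinal fat, 1.5 in epididymal fat, 0.5 in gastrocnemius and 1 in soleus, where its main strand spanned 1.5 to 197. mmu-miR-141* measured 4.5, 2.5, 2.5, 1.5 and 2.5 units in the same order. Neither probe separated epididymal fat from the rest. The other arm of mmu-miR-429 was not analysed here.

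mmu-miR-200b* was the brightest star probe, with 37 units in brown fat, 44 in inguinal fat, 39.5 in epididymal fat, 21 in gastrocnemius and 35 in soleus. Its level was alike in the fat depots and soleus, where spots overlapped, and lower in gastrocnemius. The 95th percentile of undetected probes was 33.5 to 40 units, and the probe was above it in inguinal and epididymal fat and under it in the other tissues. Its pattern did not follow that of mmu-miR-200b.

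mmu-miR-200c* was highest in brown fat, at 21 units with spots of 21 to 22. It measured 4.5 units in inguinal fat, 5 in epididymal fat, 3.5 in gastrocnemius and 5 in soleus, where no spot was above 8. The brown fat spots did not overlap the others, although the main strand, mmu-miR-200c, was at 4.5 units in brown fat and 90 in epididymal fat. The RefSeq hairpin that holds both arms is printed with the arms in capitals, the star strand first.
Mir200c hairpin: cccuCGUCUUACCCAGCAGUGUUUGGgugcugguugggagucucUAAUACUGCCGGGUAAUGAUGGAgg

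**Figure D3:**
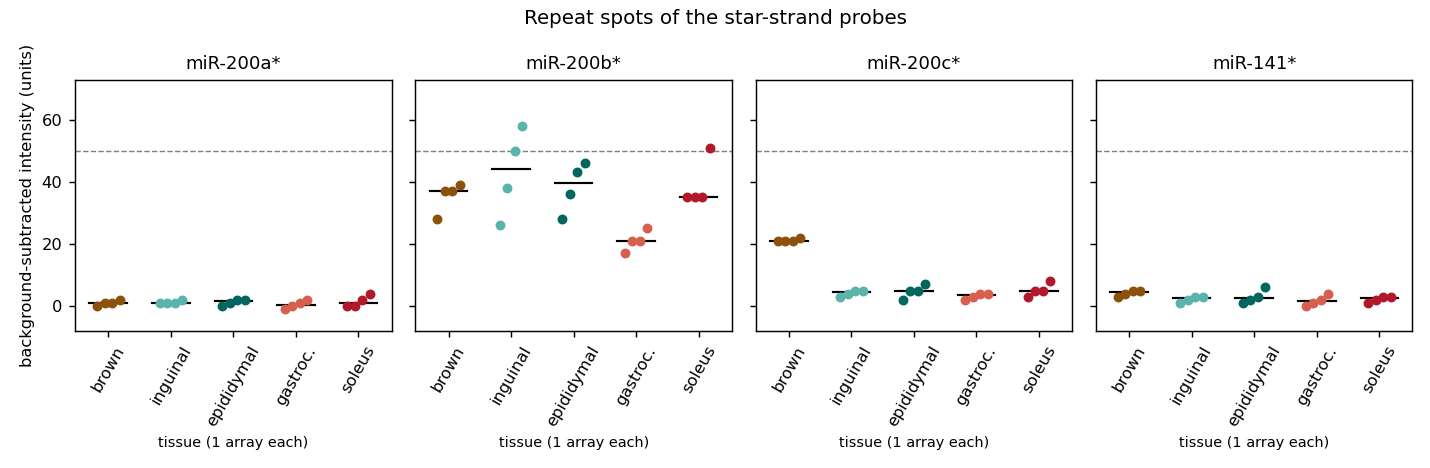
Background-subtracted intensity (units, linear axis) of each repeat spot of the 4 star-strand probes in the 5 tissues, with 1 array each, black bars at the medians and a dashed line at the floor of 50 units. All medians are under the floor, mmu-miR-200b* is nearly as bright in every fat depot, and mmu-miR-200c* stands apart in brown fat at 21 units.

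The label of the family was set beside other microRNAs of epithelium, from lists chosen for the cells that a depot could hold. Of 5 other epithelial microRNAs, only mmu-miR-203, which is abundant in skin, was detected in epididymal fat, at 287 units. mmu-miR-205, known from stratified epithelia and glands, measured 7.5 units there. mmu-miR-182, mmu-miR-96 and mmu-miR-183, a cluster best known from sensory epithelia, measured 2, 4 and 3 units. The epithelial list as a whole did not share the family's pattern.

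The 5 summed to 1271 units in brown fat, beside 303.5 in epididymal fat, 210 in inguinal fat, 68 in soleus and 34.5 in gastrocnemius, and all but mmu-miR-205, at 1 unit there, were highest in brown fat. mmu-miR-203 measured 757 units in brown fat, 287 in epididymal fat, 178.5 in inguinal fat, 54 in soleus and 25.5 in gastrocnemius. All 3 members with a fold against brown fat were lower in epididymal fat, by 2.34-fold for mmu-miR-203, at least 3.73-fold for mmu-miR-96 and at least 4.69-fold for mmu-miR-182. In brown fat, by contrast, the highest family main strand was mmu-miR-200c at 4.5 units. Against the remaining tissues mmu-miR-203 was the only member of the epithelial list with a fold. It was higher in epididymal fat, by 1.71-fold over inguinal fat, at least 5.85-fold over gastrocnemius and 6.28-fold over soleus. Of 4 gut and kidney epithelial microRNAs, mmu-miR-192 reached 67.5 units in epididymal fat and 60.5 in brown fat. Only mmu-miR-192 of that list had a fold, and it did not pass 2-fold in any comparison with epididymal fat.

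In the list for ciliated and male tract epithelium, 2 of 7 members were highest in epididymal fat and detected there. The list was chosen with results of these data known, and its part in the family's level was not tested. The 7 members summed to 502.5 units in epididymal fat, 106.5 in inguinal fat, 55 in brown fat, 49.5 in soleus and 41.5 in gastrocnemius. The members with a fold, mmu-miR-34b-5p and mmu-miR-34c, which are known from ciliated cells and testis, were at least 2-fold higher in epididymal fat in every comparison, and they too had a fold through being detected there. Their median log2 difference was 2.11 over brown fat, 1.93 over inguinal fat, 2.01 over gastrocnemius and 2.20 over soleus. All their folds but that of mmu-miR-34b-5p over inguinal fat were lower bounds. The medians of 0.123 to 0.406 over all microRNAs cover only those detected on both arrays, so they are not a like measure.

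Within that list, mmu-miR-34b-5p measured 282.5 units in epididymal fat, 60 in inguinal fat, 14 in brown fat, 13 in soleus and 11.5 in gastrocnemius. mmu-miR-34c measured 137.5, 21, 3, 3.5 and 2.5 units in the same order. mmu-miR-449a, a microRNA of multiciliated cells, was under the floor throughout, at 11 units in epididymal fat and at most 2.5 elsewhere. Its relatives mmu-miR-449b and mmu-miR-449c were at 0 in epididymal fat. Germ cell microRNAs did not follow: the 18 members of an X-linked testis cluster summed to 64.5 units in epididymal fat, 139.5 in brown fat, 95 in gastrocnemius, 88 in soleus and 51 in inguinal fat, and none was detected in epididymal fat.

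Mesenchymal microRNAs, the reverse side of the family's known pattern, did not all go the same way, and their link to the family was not tested. The 5 members, mmu-miR-143, mmu-miR-145, mmu-miR-214 and both arms of miR-199a, summed to 4679.5 units in epididymal fat, and to 3160.5 in inguinal fat up to 4956.5 in soleus elsewhere. In the epididymal sum, mmu-miR-143 alone gave 3663.5 units. Over inguinal fat mmu-miR-143 and mmu-miR-145 were higher in epididymal fat, by 1.87- and 1.69-fold. The remaining members were lower, by 1.67-fold for mmu-miR-199a-5p, 1.21-fold for mmu-miR-214 and 1.15-fold for mmu-miR-199a-3p. None was 2-fold lower in epididymal fat than in any other tissue, the nearest being mmu-miR-199a-5p against soleus at 1.97-fold. mmu-miR-214 was 2.03-fold higher than in brown fat. Their median log2 difference was 0.851 over brown fat, -0.208 over inguinal fat, -0.27 over gastrocnemius and -0.365 over soleus.

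**Figure D4:**
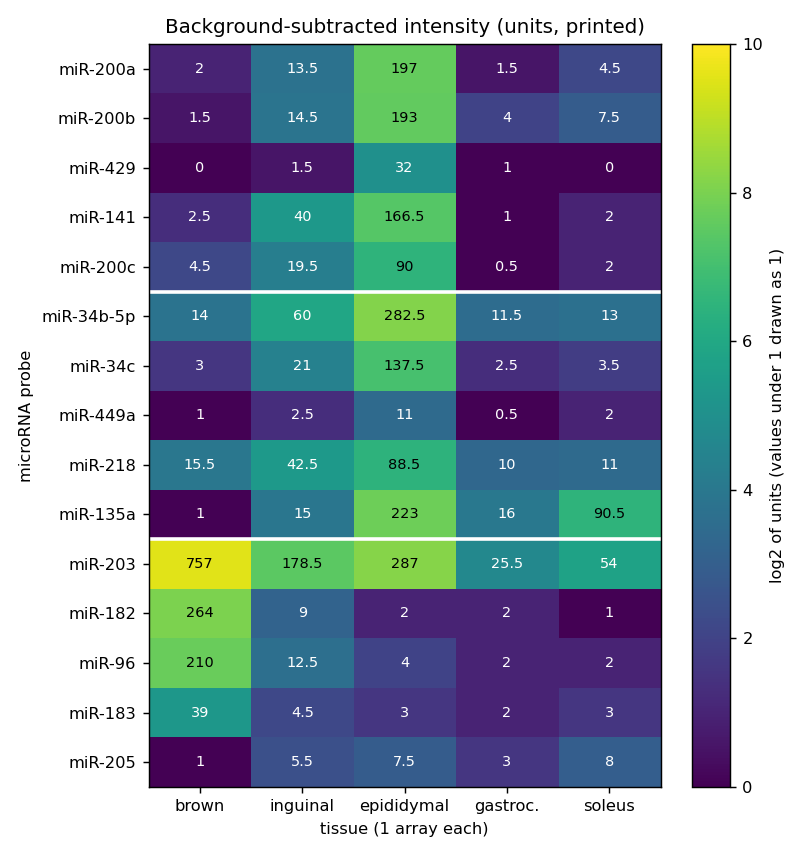
Background-subtracted intensity (units, printed in each cell) of the 5 main strands, of mmu-miR-34b-5p, mmu-miR-34c, mmu-miR-449a, mmu-miR-218 and mmu-miR-135a, and of the 5 other epithelial microRNAs, by tissue with 1 array each; colour is log2 of the units, with values under 1 drawn as 1. The first 2 blocks are brightest in epididymal fat, whereas mmu-miR-203, mmu-miR-182, mmu-miR-96 and mmu-miR-183 are brightest in brown fat.

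The tissue labels were set against marker lists in the same way. Muscle microRNAs summed to 12836 units in gastrocnemius and 15676.5 in soleus, against 141.5 in epididymal fat, and slow-fibre microRNAs to 8149.5 in soleus against 271.5 in gastrocnemius. Brown fat led the brown adipocyte list, at 9535.5 units beside 1908 to 6848.5 elsewhere, and also held 2836 units of muscle microRNAs. In the brown adipocyte sums, mmu-miR-378 alone gave 7126.5 units in brown fat, 5958 in gastrocnemius and 6074.5 in soleus. Leukocyte microRNAs summed to 9386 units in inguinal fat and 4171 in epididymal fat, so inguinal fat led that list while epididymal fat led the family. Endothelial microRNAs lay between 2651 and 5874 units. None of the lists marks white adipocytes.

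The microRNAs most like the family were ranked by Pearson's r over the 5 tissues with the mean log2 profile of the 4 detected members, values under the floor being raised to it. Of 123 candidates with a range of at least 1 log2 unit, the highest were mmu-miR-34c at 1.00, mmu-miR-218 at 0.997, mmu-miR-34b-5p at 0.996 and mmu-miR-145* at 0.989. mmu-miR-99b at 0.958, mmu-let-7e at 0.951, mmu-miR-10b at 0.934 and mmu-miR-135a at 0.922 followed. The family has 4 of its 5 points at the floor. A microRNA that is highest in epididymal fat and nearly level elsewhere therefore scores high, and the points share their arrays and scaling. With values raised to 1 unit instead, a choice added after seeing the data, only mmu-miR-34c, mmu-miR-218 and mmu-miR-34b-5p stayed among the highest 8.

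mmu-miR-218, which lies in introns of the Slit genes, measured 88.5 units in epididymal fat, 42.5 in inguinal fat, 15.5 in brown fat, 11 in soleus and 10 in gastrocnemius, the same order of the first pair of tissues as in the family. mmu-miR-135a measured 223 units in epididymal fat but 90.5 in soleus, where the family was at the bottom. mmu-miR-99b, mmu-let-7e and mmu-miR-10b were detected on every array and were at most 2.35-fold higher in epididymal fat than in any other tissue. mmu-miR-145*, the other arm of a smooth muscle microRNA, measured 87.5 units in epididymal fat and 41 to 55.5 elsewhere.

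**Figure D5:**
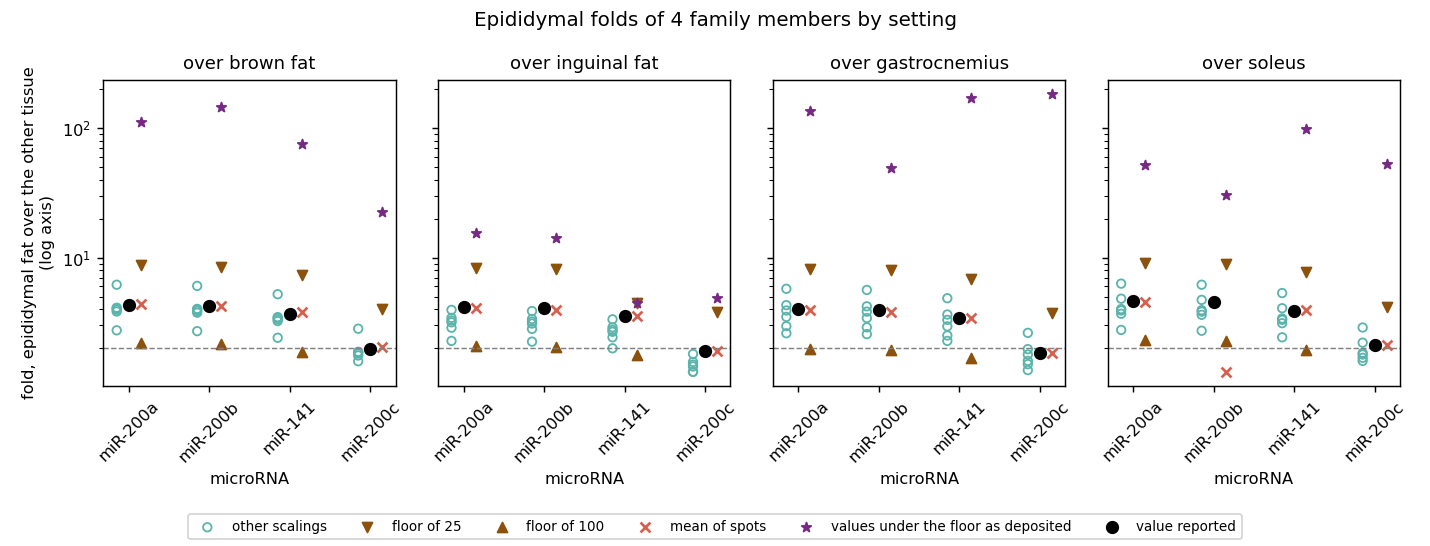
Fold of epididymal fat over each other tissue (log axis, 1 array each) for the 4 detected members under each setting; black points are the values reported, open circles the 6 other scalings, triangles the floors of 25 and 100 units, crosses the mean of spots and stars the values under the floor as deposited, with 2-fold dashed. All folds are above 1, the reported values of mmu-miR-200c lie nearest to 2-fold among the reported values, and mmu-miR-200b over soleus drops to 1.30 with the mean of spots.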

How the data were processed

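MicroRNA arrays of 5 tissues were analysed, 1 array each, all used. Per the file headers, the authors deposited background-subtracted spot intensity, took the median of 4 spots per probe, and divided it by the array's median over microRNAs past 50 units on all arrays (396 to 467.75 units), which gave a normalized intensity. The authors also deposited the fold (ratio) between arrays for each probe. The scanner software is not given in the sources used here. Taken as probe values and not as single spots, empty positions reached 2.5 units and negative controls 6.0. Spot SD on the log2 scale had a median of 0.15 over detected probes, and the number of arrays limits the precision.

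From these, folds were computed with Python 3.11.15, numpy 2.4.6 and pandas 2.3.3 as described beside the results, and figures with matplotlib 3.10.9. The normexp background correction (offset 50) with quantile normalization used limma 3.58.1 in R 4.3.3. The 2-fold rule was checked on simulated data. Alternatives were other scalings, floors of 25 and 100 units, the mean of spots, and values under the floor as deposited.

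Members and lists were chosen with earlier results of these data known. The rule for named microRNAs took all family probes, list members at the floor on at least 1 array, and the 8 microRNAs most like the family. However, muscle, brown adipocyte, leukocyte, endothelial and testis list members are given only as sums, except mmu-miR-378. Others, such as mmu-miR-205 and mmu-miR-449a, were named for their list after their values were seen. Names are the array's, and sequences, matched by name and arm, are RefSeq's. Probe sequences were not used here.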

Additional observations from a re-analysis of the deposited data

How the results depend on the processing

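None of the member folds fell below 1 under any setting tried. Members entered through detection in epididymal fat, mostly over values raised to the floor, so this direction was largely set by the rule. The list comparisons, cluster ratios, order of tissues under the floor and count of microRNAs higher than in each of the other 4 tissues were not rerun. The count of mouse microRNAs at least 2-fold higher in epididymal than in inguinal fat, 20 as reported, was 12 with no scaling, 7 with scaling to the 75th percentile of probes detected on all arrays, 11 with that percentile over all mouse probes, 6 with normexp and quantile normalization, 11 with spike-in scaling and 10 with the pair centred on its median, a setting added after seeing the data. Over soleus, 41 became 26 with no scaling, 25 with the percentile of probes detected on all arrays and 61 with spike-in scaling. Over gastrocnemius, 32 became 20 with that percentile and 60 with spike-in scaling, and over brown fat 23 became 51 with spike-in scaling. Over the 6 other scalings the fold over inguinal fat ran from 2.27 to 3.94 for mmu-miR-200a, 2.24 to 3.86 for mmu-miR-200b, 1.99 to 3.33 for mmu-miR-141 and 1.31 to 1.80 for mmu-miR-200c. The fold of mmu-miR-200c ran from 1.59 to 2.88 over soleus, so that 3 members in place of 4 passed there under 4 of these scalings, and with spike-in scaling it passed over brown fat (2.82) and gastrocnemius (2.62). At a floor of 25 units, 1 family probe counted as detected in brown fat, 2 in inguinal fat and 1 in soleus, where 0 were reported. In brown fat and soleus it was the star strand mmu-miR-200b*, and in inguinal fat that strand and mmu-miR-141. In epididymal fat 6 were detected in place of 4. With the mean of spots 1 family probe was detected in soleus. At a floor of 100 units, 0 members passed 2-fold over gastrocnemius and 2 over soleus, where 3 and 4 were reported, because the raised side was higher and mmu-miR-200c was no longer detected. Over brown fat and over inguinal fat 2 passed at that floor, where 3 were reported, since mmu-miR-141 no longer did. Of the 16 member folds, all passed 2-fold at a floor of 25 or with values under the floor as deposited. No paired analysis was possible because no group held more than 1 array. Animals, extraction and labelling have no measured spread here.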

Other observations

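Of the arms of the miR-34 hairpins that were under the floor throughout, mmu-miR-34c* measured 32 units in epididymal fat, 7 in brown fat, 7 in inguinal fat, 4.5 in soleus and 2.5 in gastrocnemius, so it was highest where its main strand was. mmu-miR-34b-3p measured 39.5 units in epididymal fat and 29 in brown fat, so it separated the tissues less than mmu-miR-34b-5p. The star strand mmu-miR-125b*, one of the 8 microRNAs detected in epididymal fat alone, measured 66.5 units there and 22.5 to 34.5 elsewhere, and mmu-miR-411* measured 55.5 there and 40 to 47 elsewhere. Those 2 lay closer to the floor on the other arrays than any detected member of the family except mmu-miR-141 in inguinal fat, at 40 units.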
